A study of Mus musculus with 21 samples.

Results

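The long-passaged mouse liver progenitor cultures were compared with early ones before any hepatic induction. The cells, called CLiPs (chemically induced liver progenitors), are cells that the study derived in culture from hepatocytes of female C57BL/6 mice. Total RNA was measured on 1-colour Agilent arrays. The comparison used the 3 arrays titled late day 0 and the 3 titled P1 day 0, that is 6 of the 21 arrays of the series, and all genes. The P1 cells had been passaged 1 time. Per the labels, late replicates 1 and 2 were at passage 12 and late replicate 3 at passage 11. All 6 samples came before the inducers oncostatin M and dexamethasone were given. Whether the replicates were grown or isolated separately is not in the labels. The p-values therefore rest on the spread of these 6 samples alone, which may be technical.

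Passage cannot be told apart from the measuring set. Per the file headers, the P1 arrays were read on 1 scanner and extracted with 1 version of Agilent Feature Extraction, and the late arrays on another scanner with an older version. The late arrays all lay on a slide of their own. P1 replicates 1 and 2 shared a slide, and P1 replicate 3 lay on another. The 75th percentile of the signal was 671.9 to 788.6 on the P1 arrays and 1119 to 1241 on the late arrays. Between 49.85% and 53.44% of probes were well above background on the P1 arrays, against 56.94% to 59.68% on the late arrays. After each array was scaled to its 75th percentile, the 10 kinds of spike-in RNA read 0.09 to 0.996 lower on the log2 scale on the late arrays. Before scaling they differed by -0.309 to 0.596, so they did not follow the rise of the 75th percentile. The median scaled difference was -0.54, and a scaling to the spike-ins would place the gene differences higher. The median late minus P1 difference of the genes measured on all 6 arrays was -0.469 for genes with a mean level under -3, between 0.012 and 0.055 in each 1-unit class from -1 to 5, and -0.181 above 7. For these reasons large changes of bright probes were given the most weight.

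Mature hepatocytes secrete most plasma proteins, and their gene programme is held by a network of liver transcription factors. Biliary cells and liver progenitors carry simple-epithelium keratins, tight junctions and surface proteins such as EpCAM. Interferon-stimulated genes are a separate programme, switched on in most cell types when a complex that holds STAT2 and IRF9 binds a short DNA element in their promoters. Hepatocytes that grow in culture commonly lose mature liver genes.

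All values below are log2 processed signals minus the 75th percentile of the array, so 0 is the level of that percentile, and a difference is the mean of the 3 late arrays minus the mean of the 3 P1 arrays. A gene was called higher or lower when its adjusted p from limma was under 0.05 and the change at least 2-fold. Of 20678 genes tested, 927 (4.48%) were called higher and 1603 (7.75%) lower in late cells. Among these, 123 (0.595%) were at least 4-fold higher and 322 (1.56%) at least 4-fold lower with the brighter group at or above the 75th percentile. The median difference over all tested genes was -0.02. Every list count below is to be read beside the shares of 4.48% called higher and 7.75% called lower. The 3 late arrays lay on one side of the 3 P1 arrays for 925 of the genes called higher and 1601 of those called lower. The rule for a call nearly ensures this separation, so it is no further evidence. The median level of the 322 bright lower genes was 1.94, 1.92 and 2.07 on the P1 arrays and -1.79, -1.62 and -1.63 on the late arrays. For the 123 bright higher genes it was -1.14, -1.10 and -1.46 on the P1 arrays and 2.50, 1.69 and 1.78 on the late arrays. The gap between the groups in these medians follows from the choice of the genes.

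**Figure D1:**
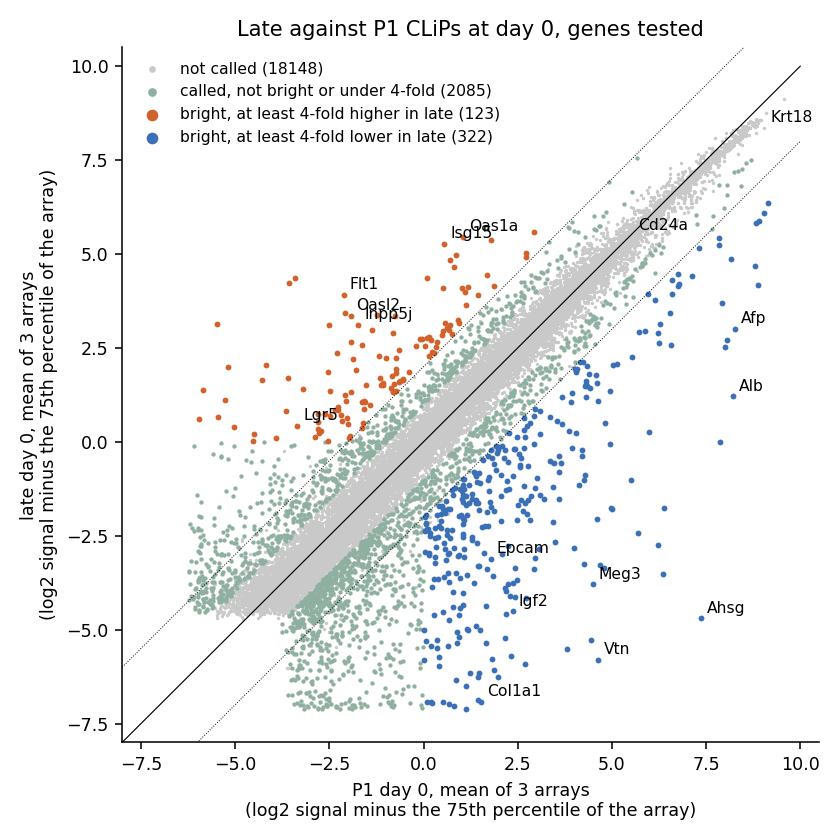
Mean level of each of the 20678 tested genes on the 3 late arrays (vertical) against the 3 P1 arrays (horizontal), both as log2 signal minus the 75th percentile of the array. The solid line marks equal values and the dotted lines a 4-fold difference. The 322 bright genes that were at least 4-fold lower outnumber the 123 that were at least 4-fold higher.

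Interferon-stimulated genes were the group that stood higher in late cells. Of 21 tested, 17 rose and none fell, against 4.48% of all tested genes called higher, and their median difference was 2.84. In 14 of the 17 the change was at least 4-fold and bright. The promoters of 3 of them are shown because these genes carry the element of the interferon pathway upstream of their start sites. They are the 250 bases before the start in RefSeq (GRCm38.p6), written 5′ to 3′ on the strand of the gene. Isg15 lies at chr4:156200819-156201068 on the minus strand, Ifit1 at chr19:34640639-34640888 on the plus strand and Oas1a at chr5:120907526-120907775 on the minus strand. Capitals mark every match to 2 copies of GAAA with any 2 bases between them, searched on both strands, where matches can overlap.
Isg15: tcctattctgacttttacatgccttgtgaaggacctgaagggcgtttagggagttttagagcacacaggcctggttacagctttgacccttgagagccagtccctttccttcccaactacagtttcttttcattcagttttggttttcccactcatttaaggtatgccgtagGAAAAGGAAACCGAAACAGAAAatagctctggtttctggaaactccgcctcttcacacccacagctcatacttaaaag
Ifit1: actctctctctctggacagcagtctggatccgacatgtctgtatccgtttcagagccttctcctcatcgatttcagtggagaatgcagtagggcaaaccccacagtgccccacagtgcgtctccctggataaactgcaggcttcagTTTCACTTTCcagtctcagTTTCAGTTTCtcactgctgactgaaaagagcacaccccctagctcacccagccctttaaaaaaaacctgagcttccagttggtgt
Oas1a: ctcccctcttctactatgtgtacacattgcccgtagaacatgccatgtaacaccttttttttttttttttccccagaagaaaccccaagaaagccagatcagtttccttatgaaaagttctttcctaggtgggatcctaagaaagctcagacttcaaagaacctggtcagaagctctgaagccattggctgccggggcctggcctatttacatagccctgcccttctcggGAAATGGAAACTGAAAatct
There were 3 matches in Isg15, and 2 each in Ifit1 and Oas1a. The same letters occurred in 3.46% of 27025 RefSeq promoters of this length and in 3.16% of the 11523 tested genes with a promoter in the table. They occurred in 8 of the 14 called interferon-stimulated genes with a promoter (57.1%). Among all tested members of that list, called or not, it was 9 of 16 (56.2%), so the share belongs to the list and not to the call. Irf7 and Oasl2, both called higher, had no match. Among all genes called higher, 51 of 498 had a match (10.2%), and among those called lower 27 of 951 (2.84%). A match describes the sequence and was not a measure of binding.

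Isg15, a ubiquitin-like protein attached to other proteins in the antiviral state, read 0.68, 0.98 and 0.00 on the P1 arrays and 6.67, 4.15 and 4.98 on the late arrays. All late arrays lay far above all P1 arrays, and the difference was 4.71 ± 0.65 (SE; adjusted p = 0.0028). Oas1a, a sensor of double-stranded RNA, read 0.93, 1.46 and 0.74 in P1 and 6.44, 4.68 and 5.23 in late cells (difference 4.41, adjusted p = 0.0011). Irf7, a transcription factor that amplifies the interferon response, read 0.98, 1.33 and 0.29 in P1 and 6.45, 3.95 and 4.52 in late cells (difference 4.10, adjusted p = 0.005). In each of these genes late replicate 1 was the highest array by more than 1 log2 unit. Rtp4, a chaperone of receptor trafficking, was 4.12 higher (adjusted p = 0.00078), and Oasl2, of the same family as Oas1a, was 5.29 higher (adjusted p = 0.0014). Ifit1, which binds foreign RNA, rose by 4.42 (adjusted p = 0.0053). Oas2 was well above background on no P1 array and on all 3 late arrays, and was at least 31.9-fold higher (adjusted p = 0.0083). Mx2, an antiviral GTPase also measured only on the late arrays, was at least 15.1-fold higher (adjusted p = 0.004).

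The transducers Stat2 and Irf9 were higher as well. Stat2 rose by 1.56 (adjusted p = 0.011) and Irf9 by 1.81 (adjusted p = 0.0017), and both were chosen after their values were seen. Ifnar1, a chain of the receptor for type I interferons and also chosen after its values were seen, read 1.95 to 2.24 in P1 and 2.06 to 2.29 in late cells, so the groups overlapped. Socs1, an inhibitor of the pathway, rose by 2.08 (adjusted p = 0.004). The 4 tested members that were not called were Ifit2 (0.30), Zbp1 (1.21, adjusted p = 0.27), Ifi27l2a (1.82, adjusted p = 0.074) and Ifit3 (1.72, adjusted p = 0.13). The proteasome subunit Psmb8, which shapes peptides for antigen presentation, read 0.04, 0.30 and -0.22 in P1 and 3.58, 1.64 and 2.45 in late cells (difference 2.52, adjusted p = 0.0087), and Psmb9 rose by 2.24 (adjusted p = 0.012). Of 13 tested genes of MHC class I and antigen presentation, 5 rose and none fell, with a median of 0.83. That count was 2 without P1 replicate 3, 3 without P1 replicate 1, P1 replicate 2 or late replicate 1, and 7 without late replicate 2. The class I heavy chain H2-K1 differed by 0.75 (adjusted p = 0.056) and its partner B2m by 0.49 (adjusted p = 0.091), neither called.

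Late replicate 1 carried the highest interferon signal. The median of the 21 interferon-stimulated genes was 0.02, 0.13 and -0.52 on the P1 arrays, 3.60 on late replicate 1, and 1.69 and 1.83 on late replicates 2 and 3. Without late replicate 1 the difference of Isg15 was 4.01, that of Irf7 3.36, that of Ifit1 3.69 and that of Oasl2 4.68, and the median of the list was 2.22. Without late replicate 2 they were 5.27, 4.62, 4.99 and 5.84, and the median 3.31. The fitted differences of Mx2 and Oas2, which are no bounds since both were dim in P1, were 3.77 and 5.07 without late replicate 1 and 5.11 and 7.47 without late replicate 2. Between 14 and 18 of the 21 genes were called when any 1 array was left out. In the day 8 samples, measured on other arrays with the same split of scanners, the late minus P1 difference of Isg15 was 4.71 without and 3.44 with the inducers. For Oas1a these were 4.37 and 5.20. The day 8 samples have the same passages as those of day 0, and the labels do not say whether they came from separate cultures.

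**Figure D2:**
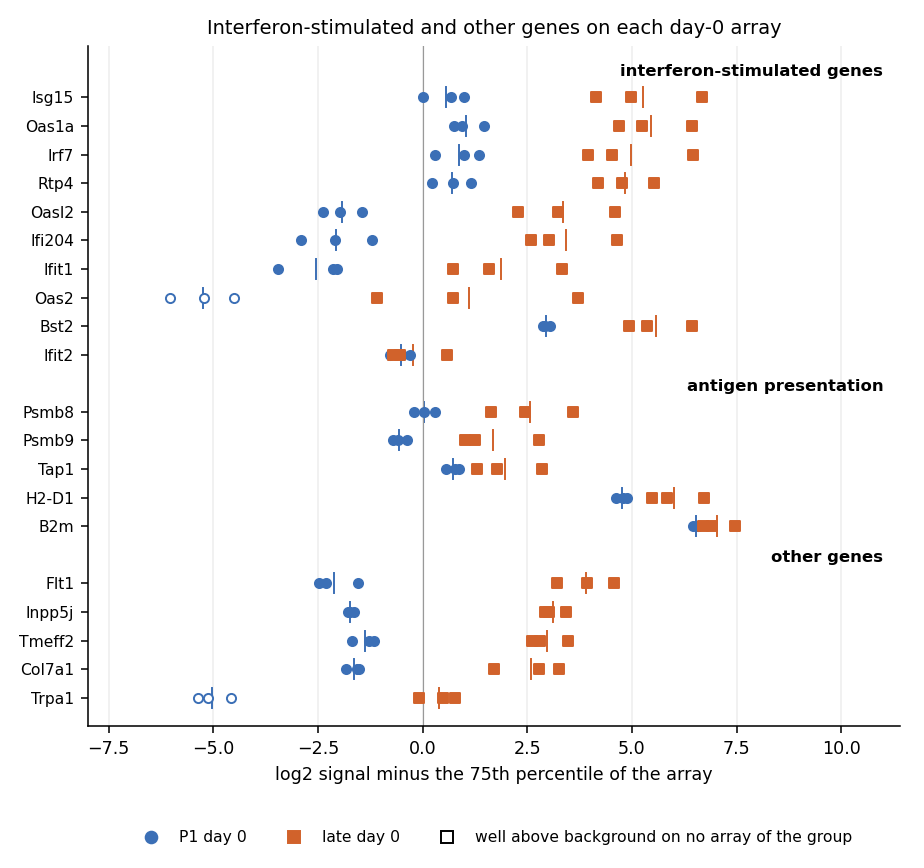
Level of interferon-stimulated, antigen-presentation and other genes on each of the 6 arrays, as log2 signal minus the 75th percentile of the array. Circles are P1 and squares late arrays, bars mark group means, and open symbols are groups in which the probe was well above background on no array. Isg15 lies at 0.98 or lower on the P1 arrays and at 4.15 or higher on the late arrays, while Ifit2 overlaps.

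Several genes outside the interferon list were also far higher in late cells. Flt1, a receptor for VEGF best known from endothelium, read -1.56, -2.30 and -2.48 in P1 and 4.57, 3.21 and 3.92 in late cells. The groups were far apart, with a difference of 6.01 ± 0.40 (SE; adjusted p = 0.00028). No other endothelial marker was called higher. Of 13 such markers 4 were tested, Pecam1 differed by -0.34, Eng by -1.19 and Stab2 fell by 1.02 (under 2-fold and not called at -0.85 with quantile normalization, -0.83 with normexp background correction, -0.98 without P1 replicate 1 and -0.99 without late replicate 1), and Cdh5, Kdr, Tek, Tie1 and Vwf were not well above background on all arrays of either group. The median of the 4 tested markers was -2.66 to -1.78 on the P1 arrays and -3.32 to -2.64 on the late arrays. Inpp5j, an inositol phosphatase, read -1.75, -1.65 and -1.79 in P1 and 3.03, 3.41 and 2.92 in late cells (difference 4.85, adjusted p = 2.3e-05). Tmeff2, a transmembrane protein with follistatin-like domains, was 4.34 higher (adjusted p = 2e-04), and Col7a1, the collagen of anchoring fibrils, 4.22 higher (adjusted p = 0.00073). Trpa1, an ion channel, was measured only on the late arrays and was at least 19.4-fold higher (adjusted p = 0.00015). Vegfa, a ligand of Flt1, rose by 2.33 in its brightest probe (adjusted p = 1e-04). Its 4 probes disagreed, with differences from -0.16 to 2.33.

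Mature hepatocyte genes formed the largest block of lower genes. Of 22 genes for proteins that hepatocytes secrete, 19 fell and none rose, against 7.75% of all tested genes called lower, and the median difference was -4.41. In bulk RNA, fewer cells that express such a gene and less RNA per cell cannot be told apart. Albumin (Alb), the main plasma protein, read 8.18, 8.07 and 8.42 on the P1 arrays and -0.40, 0.56 and 3.46 on the late arrays. No late array reached a P1 array, although the late arrays spread over almost 4 log2 units (difference -7.02 ± 0.95 SE; adjusted p = 0.0027). Apoc1, an apolipoprotein, read 6.18, 6.13 and 6.75 in P1 and -4.24, -3.77 and -2.57 in late cells (difference -9.88, adjusted p = 9.3e-05). The fibrinogen chain Fgg read 6.20, 6.19 and 6.30 in P1 and -4.57, -4.32 and 0.68 in late cells (difference -8.97, adjusted p = 0.0043). Vtn, for vitronectin, was well above background on no late array and at least 688-fold lower (adjusted p = 3.6e-05). With normexp background correction its fitted difference was -7.98, a smaller change than that minimum. Ahsg, for fetuin-A, read 7.14 to 7.64 in P1 and was well above background on 1 of the 3 late arrays (-5.79, -5.71 and -2.60). Hp, for haptoglobin, fell by 7.87 (adjusted p = 0.00036).

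Not every secreted protein gene behaved this way. Beside the genes named by rule, Serpina1a, Trf, Gc, C3, Ncam1, Peg3, Ndn, Zeb2, Bub1b and Acta2 are given here and elsewhere, chosen after their values were seen. Rbp4, for the retinol carrier, read 8.29, 8.11 and 8.64 in P1 and 7.50, 7.69 and 7.81 in late cells, a difference of -0.68 that was under 2-fold. The vitamin D carrier Gc and the iron carrier Trf fell by 1.16 (adjusted p = 0.0024) and by 1.20 (adjusted p = 0.017). Under quantile normalization Gc (-0.94) and Trf (-0.94) were under the 2-fold limit. Trf was no longer called without late replicate 1 (-0.89) or without P1 replicate 3 (-1.10, adjusted p = 0.054). Transthyretin (Ttr) read 6.51, 6.28 and 7.01 in P1 and 3.05, 4.47 and 4.32 in late cells (difference -2.65, adjusted p = 0.0042). Serpina1a, for the main protease inhibitor of plasma, fell by 2.78 (adjusted p = 0.0042). Apoc3 and Serpinc1 were not called in their brightest probe (-0.04 and -0.66), but their other probes differed by -4.53 to -3.01.

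Late replicate 3, the sample at passage 11, held the highest residue of several of these genes. Without it the difference was -8.14 for Alb, -10.68 for Fgg and -8.31 for Hp. Without late replicate 1 these were -6.21, -8.05 and -7.19. Ahsg was well above background on 1 late array only, and its fitted difference, which rests on values near the background, was -13.12 without late replicate 3 and -11.53 without late replicate 1. The median level of the 22 secreted-protein genes was 6.36, 6.24 and 6.88 on the P1 arrays and 0.21, 1.02 and 2.45 on the late arrays. A single array at passage 11 does not allow a comparison between passages 11 and 12.

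Genes of the acute-phase response and of complement and coagulation, which the liver makes for the blood, followed the same direction. Of 18 tested acute-phase genes 14 fell, with a median of -3.52, or -3.06 when genes dim in late cells were set to their minimum change. Of 18 tested genes of complement and coagulation 13 fell, with a median of -3.92 or, bounded in this way, -3.15. None of either list rose. Several members belong to more than 1 of these lists. Serping1, the inhibitor of complement C1, read 2.51, 2.76 and 2.88 in P1 and -4.33, -3.98 and -4.18 in late cells (difference -6.88, adjusted p = 9.7e-06). C3, the central complement protein, read 8.08, 8.16 and 8.22 in P1 and 3.87, 5.24 and 5.53 in late cells (difference -3.28, adjusted p = 0.0023). F12, the contact factor of coagulation, was at least 179-fold lower (adjusted p = 0.00023). It was well above background on no late array, and its fitted difference was -8.02 without late replicate 2. Orm1, for an acute-phase glycoprotein, was at least 18.6-fold lower (adjusted p = 9.2e-05).

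Enzymes of liver metabolism were lower in part. Of 17 tested cytochrome P450 and other phase I genes, 8 fell and none rose. Cyp2d26 read 2.60, 2.65 and 3.62 in P1 and -3.43, -3.72 and -2.14 in late cells (difference -6.06, adjusted p = 0.00047). Its other measured probe differed by -3.55. Cyp2d10 fell by 6.15 (adjusted p = 0.00031). Cyp3a11, the main drug-oxidising P450 of adult mouse liver, was low but well above background on all 6 arrays. It read -3.54 to -2.94 in P1 and -4.23 to -4.19 in late cells. The difference of -0.835 (adjusted p = 0.015) was under 2-fold and not called. Of 12 conjugation enzymes 6 fell and 1 rose. Sult1a1, a sulfotransferase, fell by 5.28 (adjusted p = 0.001; -5.93 without late replicate 3), and the methyltransferase Nnmt rose by 1.43 (adjusted p = 0.0094). Of 11 tested genes of urea synthesis or amino acid breakdown 5 fell. Nags, which makes the activator of the urea cycle, was at least 16.6-fold lower (adjusted p = 4.4e-05). Cps1, the first enzyme of the urea cycle, was too dim to be tested. Of 10 tested genes of gluconeogenesis and glycogen 5 fell and 1 rose. Pygl, the liver glycogen phosphorylase, was at least 62.9-fold lower (adjusted p = 3.4e-05). The coactivator Ppargc1a rose by 1.67 (adjusted p = 0.0051), but by 0.865, under 2-fold, with normexp background correction. None of 22 genes of cholesterol synthesis and uptake and none of 22 respiratory chain subunits was called in either direction.

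The transcription factors of the hepatocyte network were unequally affected. Of 18 tested, 8 fell and 1 rose. Nr5a2, a nuclear receptor of bile acid and cholesterol handling, read 1.21, 0.94 and 1.25 in P1 and was well above background on no late array, which made it at least 60.5-fold lower (adjusted p = 4e-06). Foxa3 read 0.67, 0.43 and 0.93 in P1 and -5.10, -4.55 and -4.57 in late cells, where 2 of 3 arrays were well above background (difference -5.41, adjusted p = 4.7e-05). Foxa1 read 2.35, 2.44 and 2.43 in P1 and -0.11, -0.13 and -0.32 in late cells (difference -2.59, adjusted p = 3.6e-05). Prox1, needed for hepatocyte identity, fell by 2.83 (adjusted p = 0.00091). Cebpa, a driver of mature liver genes, fell by 3.47 (adjusted p = 0.00068), with 1 of 3 late arrays well above background. Hnf4a, the central factor of the network, read 6.31, 6.13 and 6.63 in P1 and 4.78, 5.45 and 5.28 in late cells. Its difference of -1.18 was called (adjusted p = 0.007) but was -0.99, under the 2-fold limit, without late replicate 1. Foxa2, a pioneer factor of the same family as Foxa1 and Foxa3, read 3.82 to 4.11 in P1 and up to 4.40 in late cells, with overlap. Nr1h4, the bile acid receptor, rose by 1.39 (adjusted p = 0.0022), with 1 of its 2 probes under 2-fold at 0.62.

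Genes of fetal liver and imprinted genes were mostly lower as well. Of 20 tested, 12 fell and 3 rose, with a median of -2.51 or, bounded, -2.36. Over the members measured on all 6 arrays only, a choice that removes genes lost in late cells, 4 were called lower and the median was 0.08. Afp, the fetal counterpart of albumin, read 8.20, 8.14 and 8.46 in P1 and 3.04, 2.88 and 3.09 in late cells (difference -5.26 ± 0.11 SE; adjusted p = 1.1e-05). Both groups were tight and far apart. Igf2, a fetal growth factor, read 1.99, 2.53 and 2.61 in P1 and -4.85, -3.91 and -4.78 in late cells, well above background on 1 of 3 late arrays (difference -6.89, adjusted p = 8.8e-05). H19, the noncoding RNA beside Igf2, read 1.58, 2.31 and 3.36 in P1 and -6.30, -2.01 and -4.07 in late cells, 2 of them well above background (difference -6.55, adjusted p = 0.0055). The other probe of each gene differed less, by -4.45 for Igf2 and by -4.725 for H19. Of another imprinted cluster, Meg3 fell by 8.28 (adjusted p = 0.00034; 2 of 3 late arrays measured) and its neighbour Dlk1 fell by 6.50 (adjusted p = 0.0029; 1 of 3). Without late replicate 2 the fitted difference was -7.61 for H19 and -7.46 for Dlk1, both resting in part on values near the background, and without late replicate 1 it was -5.46 for H19. Gpc3, an oncofetal surface proteoglycan, was at least 12.3-fold lower (adjusted p = 4e-06). The imprinted genes Peg3 (1.40, adjusted p = 0.008) and Ndn (1.53, adjusted p = 0.0094) rose.

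**Figure D3:**
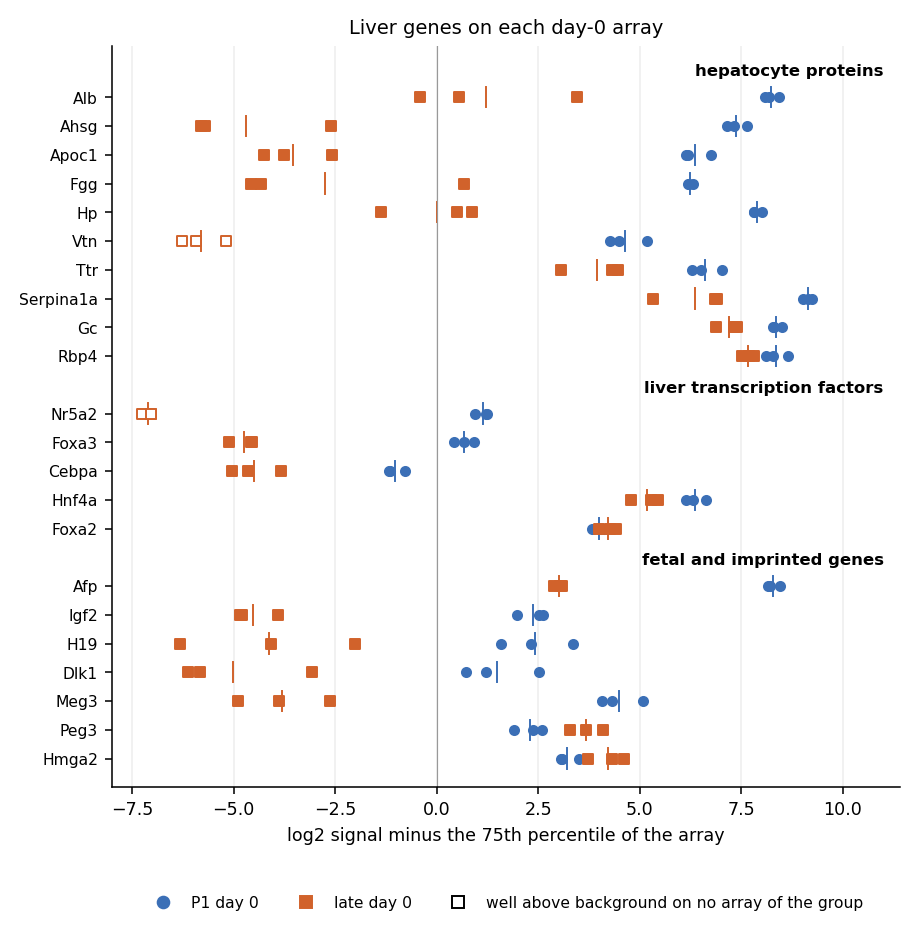
Level of hepatocyte proteins, liver transcription factors and fetal or imprinted genes on each of the 6 arrays, as log2 signal minus the 75th percentile of the array. Circles are P1 and squares late arrays, bars mark group means, and open symbols are groups in which the probe was well above background on no array. Alb lies between -0.40 and 3.46 on the late arrays and above 8 on the P1 arrays, whereas Rbp4 stays above 7 in both groups.

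Biliary and progenitor markers split. Of 24 tested, 12 fell and 2 rose, with a median of -0.90. Epcam, a surface marker of biliary cells and progenitors, read 1.82, 1.99 and 1.53 in P1 and -2.38, -3.29 and -3.68 in late cells (difference -4.90, adjusted p = 0.00032). Krt7, a biliary keratin, read 3.62, 3.59 and 3.15 in P1 and 0.20, -0.06 and -1.86 in late cells (difference -4.02, adjusted p = 0.0027; -3.38 without late replicate 3). Krt19 read 5.37, 5.65 and 5.13 in P1 and 4.17, 3.83 and 4.34 in late cells (difference -1.27, adjusted p = 0.0034). With all 21 arrays in the fit, its adjusted p was 0.11. Other markers of the same cells stayed close. Sox9, a biliary transcription factor, read 1.39, 1.39 and 1.15 in P1 and 1.14, 1.15 and 0.90 in late cells, with overlap. Cd24a, a surface glycoprotein, differed by -0.04 and Spp1, for osteopontin, by -0.54, neither called. Prom1, the gene of the stem cell marker CD133, fell by 3.70 (adjusted p = 0.00013), but its 3 probes ranged from -3.70 to 0.13. Lgr5, a Wnt coreceptor of progenitors, read -3.15, -3.31 and -3.60 in P1, where 2 of 3 arrays were well above background, and 0.39, 0.12 and 0.76 in late cells (difference 3.78, adjusted p = 0.00014). Ncam1, an adhesion molecule of reactive bile ductules, rose by 2.63 (adjusted p = 0.00026).

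The epithelial apparatus was reduced in many of its parts. Of 25 tested genes of cell junctions and their regulators, 15 fell and none rose, with a median of -1.24. Gjb2, a gap junction connexin, read 2.24, 2.10 and 2.13 in P1 and -5.42, -4.66 and -5.61 in late cells, well above background on 1 of 3 late arrays (difference -7.39, adjusted p = 3.7e-05). The tight junction genes Cldn3 and Cldn7 fell by 5.03 (adjusted p = 0.00034) and by 5.28 (adjusted p = 0.0045), and for Cldn7 the difference was -4.34 without late replicate 3. Gjb1, the main hepatocyte connexin, read 3.82, 3.37 and 4.62 in P1 and -0.39, -0.01 and -0.08 in late cells (difference -4.10, adjusted p = 0.00044). Grhl2, a transcription factor of epithelial genes, fell by 3.92 (adjusted p = 0.00019), and Esrp1, an epithelial splicing factor, by 3.66 (adjusted p = 0.00011). E-cadherin (Cdh1) read 5.22, 5.26 and 5.15 in P1 and 2.99, 4.42 and 4.49 in late cells, a difference of -1.24 that was not called (adjusted p = 0.051). It was called in 6 of the other settings, for example with an adjusted p of 0.049 without late replicate 3. Of 12 tested keratins 6 fell and none rose. The hepatocyte keratins stayed bright, with Krt18 differing by -0.68 and Krt8 by -1.05 (adjusted p = 0.01), the latter under 2-fold and not called at -0.81 without late replicate 1 and at -0.82 with quantile normalization.

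Fibrillar collagens and fibroblast markers were much lower in late cells, and they also varied among the P1 arrays. Col1a1, of the main fibrillar collagen, read 2.94, 1.53 and 0.14 on P1 replicates 1, 2 and 3 and -6.93, -6.91 and -6.96 on the late arrays, where it was well above background on none. It was at least 80.2-fold lower (adjusted p = 0.00045). Dcn, for the matrix proteoglycan decorin, read 3.40, 2.14 and 1.44 in P1 and -5.96, -5.47 and -5.65 in late cells, and was at least 139-fold lower (adjusted p = 0.00022). P1 replicate 1 was the highest and P1 replicate 3 the lowest for both, and all P1 arrays lay above all late arrays. P1 replicate 3 lay on another slide than P1 replicates 1 and 2. Lum, for lumican, was at least 14.2-fold lower (adjusted p = 0.0012). Of 16 markers of stellate cells and fibroblasts 10 were tested, of which 5 fell and 1 was called higher, with a median of -3.103 or, bounded, -2.13. The one called higher, Ngfr, was well above background on no P1 array and gave no minimum fold. It differed by 0.07 under normexp background correction and was not called there, nor without late replicate 1, late replicate 3, P1 replicate 2 or P1 replicate 3 (adjusted p from 0.076 to 0.092). The median of the tested markers was 0.69, -0.73 and -2.01 on the P1 arrays and -4.36 to -4.08 on the late arrays. Lrat, Hand2, Pdgfra, Pdgfrb, Rgs5 and Dpt were not well above background on all arrays of either group. The part of such cells in the result was not tested. Without P1 replicate 3, the fitted difference was -6.80 for Col3a1, -6.59 for Lum and -7.51 for Col1a2, and without P1 replicate 1 it was -5.44, -5.24 and -6.05. That of Col1a1 was -7.77 without P1 replicate 1. Col1a1, Col3a1 and Lum were well above background on no late array and Col1a2 on 1, so these fitted values show the effect of the P1 arrays and are no bounds. The median of the marker list was -5.47 without P1 replicate 3.

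Basement membrane and mesenchymal genes did not move as one. Of 24 tested collagens and basement membrane genes, 8 fell and 1 rose. Lamb3, a chain of the epithelial laminin-332, fell by 4.36 (adjusted p = 0.0047; 2 of 3 late arrays measured), and by 3.52 without late replicate 3. Lamb2, a laminin chain, rose by 1.37 (adjusted p = 0.00037). Of 20 tested mesenchymal genes and regulators of the epithelial to mesenchymal transition, 7 fell and 2 rose, and 11 were called lower without P1 replicate 3. Vimentin (Vim) read 6.35, 6.17 and 6.42 in P1 and 6.14, 6.24 and 6.25 in late cells, with overlap. The muscle tropomyosin Tpm2 fell by 4.15 (adjusted p = 0.00029). The repressor Zeb2 rose by 1.66 (adjusted p = 0.014), and Twist2 was at least 2.88-fold higher (adjusted p = 0.014). The fitted difference of Twist2 ranged from 2.71 without late replicate 1 to 4.29 without late replicate 3. Acta2, for smooth muscle actin, depended on the probe. Its brightest probe read 4.78 to 5.11 in P1 and 4.93 to 5.01 in late cells. Another read 4.74, 3.15 and 1.62 on the P1 arrays, in the same order as Col1a1, and -4.90, -4.84 and -4.88 on the late arrays, a difference of -8.05. No statement on Acta2 was made for that reason.

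**Figure D4:**
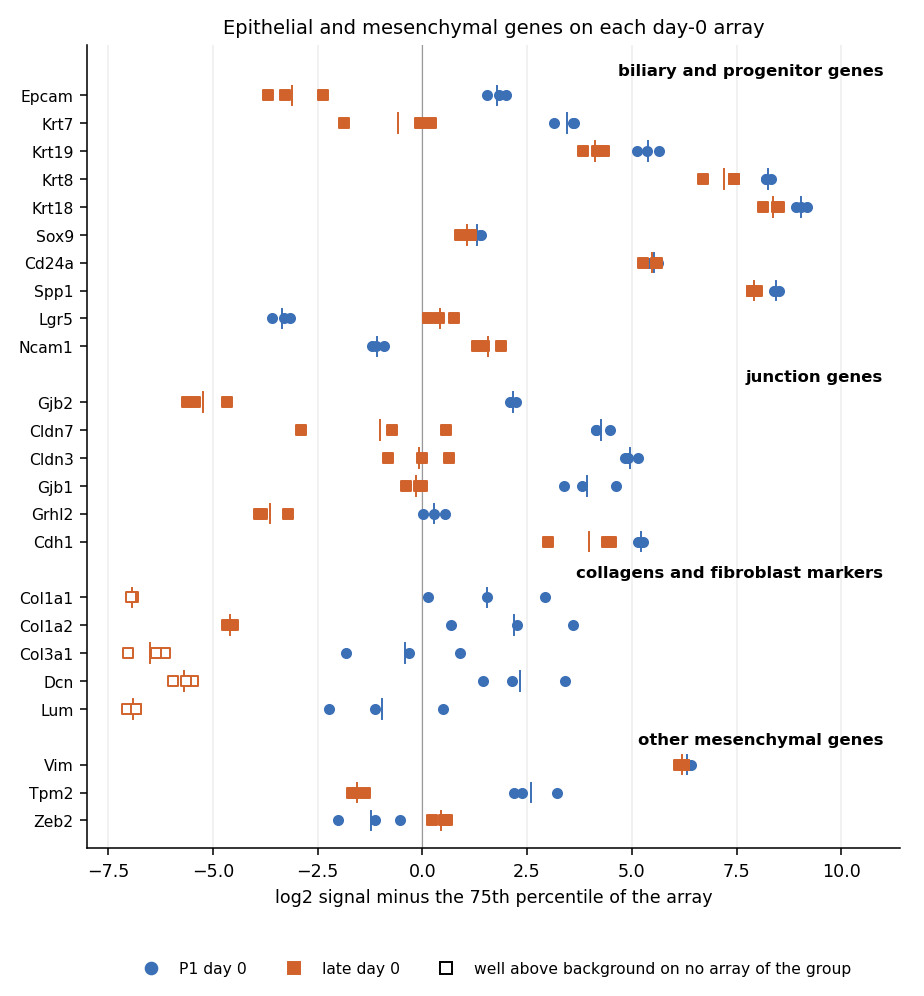
Level of biliary, junction, fibroblast and mesenchymal genes on each of the 6 arrays, as log2 signal minus the 75th percentile of the array. Circles are P1 and squares late arrays, bars mark group means, and open symbols are groups in which the probe was well above background on no array. Col1a1, Col3a1, Dcn and Lum spread over the P1 arrays and are dim on all late arrays, whereas Vim stays between 6.14 and 6.42.

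Proteases and growth factor genes changed in both directions. Of 16 tested matrix proteases and inhibitors, 11 fell and 1 rose. Plau, the urokinase protease, read 3.20, 3.62 and 3.25 in P1 and 0.16, -0.35 and -1.32 in late cells (difference -3.86, adjusted p = 0.00088). Of 14 genes of the insulin-like growth factor axis 5 fell and 1 rose, and 3 were called lower without P1 replicate 1 or P1 replicate 3. Igfbp1, a binding protein made by liver, read 6.30, 6.30 and 6.57 in P1 and -3.77, -1.26 and -0.27 in late cells (difference -8.16, adjusted p = 0.0011). Without late replicate 1 it was -7.16 and without late replicate 3 -8.91. Igfbp3 fell by 2.37 (adjusted p = 0.00053) and Irs2, an adaptor of the insulin receptor, rose by 1.84 (adjusted p = 0.00034). Of 21 tested genes of EGF, FGF and HGF signalling, 7 fell and 2 rose, and without any 1 array other than late replicate 2 the count of higher genes was 1, or 0 without P1 replicate 1. Egfr, the EGF receptor, read 4.58, 4.51 and 4.69 in P1 and 2.90, 3.29 and 2.97 in late cells (difference -1.54, adjusted p = 5e-04). Its partner Erbb3 fell by 4.14 (adjusted p = 0.00033).

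Among 19 tested Wnt genes 6 fell and 3 rose. The ligand Wnt10a read 4.94, 5.01 and 5.13 in P1 and 1.49, 1.44 and 3.18 in late cells (difference -2.99, adjusted p = 0.0045). Wnt7a was at least 17.6-fold lower (adjusted p = 0.001; fitted difference -5.87 without late replicate 1). Its other measured probe differed by -3.77. The receptor Fzd2 rose by 2.48 (adjusted p = 0.00038). Fst, for the activin antagonist follistatin, read 1.26, 1.17 and 0.93 in P1 and was well above background on no late array, at least 60.2-fold lower (adjusted p = 6e-05).

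Cell cycle genes were near their P1 level. None of 26 genes of DNA replication, none of 27 genes of mitosis and none of 16 canonical histones was called in either direction, with medians of 0.15, 0.26 and 0.08. Mki67, a marker of dividing cells, read 4.48, 4.36 and 4.34 in P1 and 4.58, 4.63 and 4.66 in late cells, a difference of 0.23. The largest difference among the mitosis genes was that of the checkpoint kinase Bub1b, at 0.81. At an adjusted p under 0.05 with no limit on the fold, 12 of the 27 mitosis genes differed, all upward, by 0.26 to 0.81. Some DNA replication genes did so too, such as Fen1 (0.69, adjusted p = 0.0047) upward and E2f2 (-0.82, adjusted p = 0.012) downward. Small differences were common: of all 20678 tested genes, 4876 were higher and 5653 lower at an unadjusted limma p under 0.05. That limit is looser than the adjusted one, and the share of all tested genes at the adjusted limit is not given here. Whether 12 of 27 exceeds that share was therefore not tested. Ccnd1, for cyclin D1, differed by 0.09 and Cdkn2a, the cell cycle inhibitor that accumulates in ageing cultures, by 0.15, both with overlap between the groups. Cdkn2b, its neighbour, read 4.98, 4.87 and 5.49 in P1 and 3.92, 3.90 and 4.16 in late cells (difference -1.12, adjusted p = 0.0047), and at -0.94 was not called without P1 replicate 3. Of 22 p53 targets 5 fell and 1 rose, against 7.75% of all tested genes called lower and 4.48% called higher. Perp, a desmosome protein and p53 target, read 6.21, 6.18 and 6.35 in P1 and 2.17, 2.74 and 2.94 in late cells (difference -3.63, adjusted p = 0.00017). Bax, which promotes apoptosis, read 3.44, 3.103 and 3.20 in P1 and 5.05, 4.99 and 5.14 in late cells (difference 1.81, adjusted p = 0.00021). Trp53 itself differed by 0.65 and was not called.

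Chromosomes 9 and 19 stood apart from the others. Over the 17798 genes measured on all 6 arrays, the median late minus P1 difference was 0.27 for the 945 genes of chromosome 9 and 0.23 for the 602 genes of chromosome 19. The other 18 chromosomes had medians from -0.11 to 0.02. On the single late arrays, each against the P1 mean, chromosome 9 stood at 0.40, 0.22 and 0.19 and chromosome 19 at 0.18, 0.29 and 0.22. Each P1 array set against the mean of the others stayed between -0.04 and 0.05 for every chromosome. A share of 66.35% of the genes of chromosome 9 and 66.61% of those of chromosome 19 had a positive difference, against 37.73% to 51.69% on the others. When each chromosome was cut into 3 parts of equal gene number, the parts of chromosome 9 had medians of 0.28, 0.26 and 0.27 and those of chromosome 19 0.34, 0.23 and 0.10. The 54 parts of the other chromosomes ranged from -0.15 to 0.05. These 2 chromosomes were also the highest on all 9 late arrays of the series, that is at day 0 and at day 8 with or without the inducers, each against the P1 arrays of the same condition. No test was made, since genes are not replicates, and copy number was not measured.

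**Figure D5:**
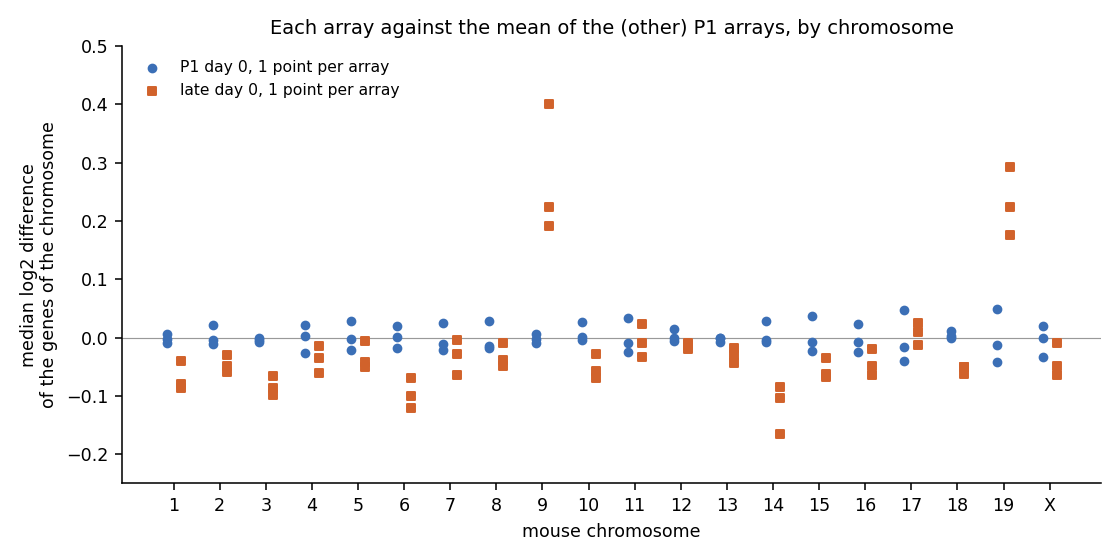
Median log2 difference of the genes of each mouse chromosome, for each late array against the mean of the P1 arrays and for each P1 array against the mean of the other P1 arrays. Chromosomes 9 and 19 lie between 0.18 and 0.40 on the late arrays, above all others.

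The day 8 arrays of late and P1 cells, which are other samples but share the passages and the split of scanners, gave values for the same genes. They may come from the same cultures as the day 0 samples. Of the 322 bright genes at least 4-fold lower at day 0, 309 were below P1 at day 8 without the inducers, with a median of -2.46, and 298 with them, with a median of -2.26. Of the 123 bright higher genes, 119 and 114 were above P1, with medians of 2.06 and 2.52. Both sets were chosen for a large day 0 difference, which by itself favours smaller medians at day 8. For comparison, 10878 of the 20678 tested genes were below P1 at day 8 without the inducers. The gap between late and P1 cells was not the same size at both times for some liver genes. Alb differed by -7.02 at day 0, by -2.36 at day 8 without and by -3.27 with the inducers. Ttr differed by -2.65 at day 0 and by 0.67 and -0.13 at day 8. The change of the gap between day 0 and day 8 without the inducers had an adjusted p of 0.047 for Alb and of 0.0056 for Ttr (limma, interaction term).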

How the data were processed

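Total RNA of 6 samples was measured on 1-colour Agilent arrays, and the authors deposited scanner output, in which the processed signal is an intensity per spot. Per the file headers, Feature Extraction subtracted the background. No control sample beyond P1 enters the comparison. Each intensity was taken as log2, the 75th percentile of the array over 56605 non-control probes was subtracted, and the spots of a probe were averaged. The brightest probe stood for a gene. Of 37074 gene names, the 20678 with a probe well above background on all 3 arrays of a group were tested with limma 3.58.1 in R 4.3.3 (lmFit, eBayes, Benjamini-Hochberg). The number of arrays limits the precision.

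Gene names came from the array files, and 32994 of 35886 RefSeq accessions matched the RefSeq table. A gene dim on every array of a group is given as a minimum fold: the mean of the brighter group against, per dim array, the higher of the gene's own value and the lowest signal among probes well above background there. Chromosomes are those given in the array files. Genes were named by rule: the 15 highest and 15 lowest bright genes measured on all 6 arrays, the 10 highest and 10 lowest minimum folds, up to 8 called and 4 other members of each list, and a set of liver, keratin and cell cycle genes. Not all of these are printed. The members and the lists were chosen with earlier results of these data known. On simulated data for this comparison (20673 genes), 84 of 100 genes changed by 1.5 on the log2 scale and 96 of 100 changed by 3 were called, and 0 of 20473 unchanged genes. The simulated noise was independent between arrays and held no effect of scanner, version, slide or brightness. It therefore cannot show how many real calls come from those differences. Alternatives covered scaling, background, filter, probe choice, model and left-out arrays. The authors' deposited value tables were not used, since each holds 1 of the sets scaled separately. Some genes are not reported here.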

Additional observations from a re-analysis of the deposited data

Results flagged for a closer look

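For 20 of 74 named genes, the late minus P1 difference at day 0 was not the same size as that at day 8 without the inducers (limma, interaction term, adjusted over 20663 genes, of which 617 were called). Many of the 74 were named for an extreme day 0 difference, and the contrast uses the same day 0 arrays. That choice favours a smaller gap at day 8, so the share of 20 in 74 cannot be set beside that of all genes. The day 0 difference was the lower for liver genes: by -6.61 for Abca1 (adjusted p = 0.001), -6.36 for Vtn (0.0033), -6.17 for Agt (7e-04), -4.95 for Hp (0.026), -4.66 for Alb (0.047), -4.15 for Apoc1 (0.024) and -3.47 for Serping1 (7e-04). It was also lower by -3.40 for Igf2 (adjusted p = 0.024), -3.33 for Cyp2d10 (0.0081), -3.32 for Ttr (0.0056), -3.03 for Hpn (0.00083), -2.97 for Akr1c18 (0.016), -1.93 for Afp (0.016), -1.84 for Prom1 (0.024) and -1.65 for Osmr (0.015). The day 0 difference was the higher by 1.22 for Cdkn2a (adjusted p = 0.027), 1.92 for Tmeff2 (0.023), 1.94 for Inpp5j (0.0039), 2.82 for Flt1 (0.021) and 4.001 for Trpa1 (0.0029). For genes dim in a group, among them Vtn, Abca1 and Trpa1, the size rests on values near the background. Of the external RNA control probes, 1 kind was well above background on all 6 arrays.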

How the results depend on the processing

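The bright counts ranged from 101 to 137 genes at least 4-fold higher and from 297 to 343 lower, except that limma's treat test against a 2-fold change gave 88 and 272, and only probes well above background on all 6 arrays gave 103 and 260. Leaving out 1 array at a time gave 828 to 985 genes higher, 1514 to 1661 lower, 109 to 137 bright higher and 307 to 343 bright lower. Normexp background correction gave 558 genes higher, with 532 shared. That restriction to probes measured on all 6 arrays gave 564 higher, and no filter on dim probes 6690 lower. The treat test called 235 higher and 714 lower. With the replicate number as a block, 912 and 1585 were called, 122 and 323 of them bright. Same-numbered arrays had correlations of deviations of 0.117, -0.079 and 0.146. Late replicates 1 and 3 correlated best with the P1 array of the same number, and late replicate 2 with P1 replicate 1 (0.086). Such weak correlations can neither show nor exclude that the numbers pair the samples. A set of 146 genes, made of the 74 genes above and others taken from the text, was followed through the settings. Of these, 131 kept their call or lack of a call in every setting in which they were fitted. No gene with a call reversed there. Some genes without a call changed sign, such as Cd24a (-0.04, but 0.07 with quantile normalization) and Vim (-0.11, but 0.02). The treat test gave counts only, and the fit on probes measured on all 6 arrays leaves out genes dim in a group. Acta2, whose probes disagree, is not among the 146 genes. Scanner, extraction version and slide cannot be told apart from passage. Dim genes have a minimum fold only, and it holds for the main background setting alone. With normexp, run with an offset of 50, the fitted change was smaller than the stated minimum for many of them. Examples are Vtn (-7.98), Dcn (-5.65), Col1a1 (-5.13), Nr5a2 (-4.92) and Oas2 (4.11). The chromosome medians, with settings chosen after seeing the data, were 0.31 and 0.27 for chromosomes 9 and 19 under quantile normalization and 0.25 and 0.22 under normexp. The cause of these shifts was not tested.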
